A study of Mus musculus with 6 samples.

Results

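Elastic fibre and lysyl oxidase genes were followed in bone marrow-derived mesenchymal stromal cells (MSCs) of female C57BL/6 mice. The set held 10 genes out of the 23420 listed in the count table, chosen by symbol: elastin (Eln), the fibrillins Fbn1 and Fbn2, the fibulins Fbln1, Fbln2 and Fbln5, and the lysyl oxidases Lox, Loxl1, Loxl2 and Loxl3. The study asked how the subunits of the thymoproteasome (TPr), the proteasome form of thymic cortical epithelium, change MSCs. The 3 libraries labelled Ctl MSC came from MSCs given the empty AP2 retroviral construct with eGFP. Those labelled MSC-TPr, also 3, came from MSCs whose construct carried in addition the subunits β1i, β2i and β5t, the products of Psmb9, Psmb10 and Psmb11. Transduction was at passage 5 and both groups were grown in AMEM with 10% FBS. The sources used here do not say whether the libraries of a group came from separate cultures, so p-values measure only the spread between these libraries, which may be technical.

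Elastic fibres give tissue its recoil. Cells lay down microfibrils of fibrillin, fibulins help to place tropoelastin on them, and lysyl oxidases, which are copper-dependent secreted enzymes, oxidise lysines so that elastin and collagen chains become cross-linked. Stromal and smooth muscle cells are the usual makers of these proteins, and Lox and Loxl2 also act on fibrillar collagen in matrix that holds little elastin.

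Gene totals ran from 16158756 to 22158887 reads, or 79.23% to 86.23% of each library's listed reads. A floor of 3 reads, which covers counting error only, came to 0.139 to 0.181 CPM (gene counts divided by the TMM-scaled library total and put on a common scale). Values for a label are listed in the order of its libraries 1, 2 and 3. The library labels were checked first, with the transduced genes. Psmb11 had 2, 4 and 2 reads under the Ctl MSC label against 4, 6 and 1 reads under the MSC-TPr label, Psmb9 0.801 to 3.38 CPM against 0.554 to 1.24 CPM, and Psmb10 8.38 to 27.8 CPM against 8.97 to 17.3 CPM. None of the 3 separated the groups over all 6 libraries, so every direction below is one between libraries labelled MSC-TPr and libraries labelled Ctl MSC. The paper reports transduction from eGFP expression and immunoblots of the subunits. Those are protein measures, and the sources used here do not tie them to single libraries. Over the libraries numbered 2 and 3 alone, Psmb10 was higher under the MSC-TPr label (log2 fold change 0.92, edgeR adjusted p = 0.00547). Psmb9 was not called there (0.59, edgeR adjusted p = 0.164), in a comparison where 40% of all genes tested were called. Of 4 MSC surface markers, Cd44 (142 to 536 CPM), Eng (142 to 204 CPM) and Nt5e (2.66 to 20.2 CPM) were present in all 6 libraries, whereas Thy1 had 1 read in Ctl MSC 1 and 0 reads in the other 5. Nt5e was lower under the MSC-TPr label without overlap (2.66 to 5.24 CPM against 11.4 to 20.2 CPM), while Cd44 and Eng overlapped. The log2 fold change of Nt5e was −2.02 over 6 libraries (edgeR adjusted p = 0.079), where DESeq2 called it (DESeq2 adjusted p = 2.04e-05). Over the libraries numbered 2 and 3, Nt5e was called lower (−1.99, edgeR adjusted p = 0.00081) and Cd44 higher (1.88, edgeR adjusted p = 0.000205). The endothelial marker Pecam1 and the leukocyte marker Ptprc together summed to 0.221 CPM or less in every library. By cell division genes, Ctl MSC 1 and MSC-TPr 1 stood with the other label. Averaged over 20 cell division genes, log2 CPM was 6.55, 3.21 and 3.19 under the Ctl MSC label against 3.24, 6.43 and 6.52 under the MSC-TPr label, and the first principal component (58.5% of the variance) split the libraries the same way. The second component (28.3%) instead separated all 6 libraries by label, at −48.86, −20.43 and −19.59 for Ctl MSC against 49.1, 24.21 and 15.58 for MSC-TPr, with the libraries numbered 1 at its ends. Whether labels were exchanged was not tested. Results are therefore given over all 6 libraries and over the 4 numbered 2 and 3. In those 4, the label and the level of cell division genes cannot be told apart.

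Before the values, the likeness of the enzyme genes is shown, because near-identical stretches decide whether a read can be assigned to 1 gene. Over whole transcripts, the longest run of identical bases between any of the 10 genes was 43 bases, for Loxl2 and Fbn2, and Lox and Loxl1 shared one of 32. Loxl2 and Loxl3, which share their domain layout, were taken for the display, and their coding sequences shared a longest run of 26 bases. The window around it, 80 bases in exon 11 of both genes, lies towards the end of the coding sequence, where these enzymes carry their catalytic domain, and the ungapped window of Loxl1 most similar to that of Loxl2 lies in its exon 4. Sequences are given 5′ to 3′ on the coding strand from the GENCODE transcripts of mm10, with capitals at the 43 positions that are identical in all 3 genes. The windows lie at chr9:58293622-58293701 on the minus strand (Loxl1), chr14:69689053-69689132 on the plus strand (Loxl2) and chr6:83050141-83050220 on the plus strand (Loxl3).
Loxl1: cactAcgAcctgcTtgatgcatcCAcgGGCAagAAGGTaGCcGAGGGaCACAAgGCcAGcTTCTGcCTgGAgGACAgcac
Loxl2: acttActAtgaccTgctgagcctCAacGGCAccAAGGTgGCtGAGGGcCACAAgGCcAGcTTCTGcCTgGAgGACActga
Loxl3: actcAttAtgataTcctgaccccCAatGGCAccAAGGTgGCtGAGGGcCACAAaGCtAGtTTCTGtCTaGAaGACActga
Loxl2 and Loxl3 matched at 82.5% of the window, Loxl1 and Loxl2 at 65.0%, and Loxl1 and Loxl3 at 56.2%. No 50-base stretch of the Lox or Loxl1 transcripts, or of those of Fbln1, Fbln2 and Fbln5, occurred in a transcript of another gene. Loxl2 differed in this respect. Of its 5356 different 50-base stretches, 2299 also occurred in Gm21451, an unprocessed pseudogene on chromosome 14 from 69390854 to 69480287, and its count is therefore uncertain. Fbn1 overlaps 2442 exonic bases of Gm9913 on the opposite strand, and Loxl3 overlaps 535 of Htra2. Shorter overlaps of this kind are those of Loxl2 with Gm27177 (301 bases), Eln with Gm30003 (267), Fbn2 with Gm26507 (129) and Lox with AC161119.1 (30). The library kit kept strand information, but the sources used here do not say whether the counting used it, so reads of these pairs may not have been told apart.

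All 10 genes had at least 1 read, and 8 passed edgeR's filter on low counts and were tested. Levels were compared between genes as CPM per kb of exon. Lox, on chromosome 18 of mm10 from 52516067 to 52529867, had the highest mean level of the set at 257 CPM per kb and was the highest of the 10 genes in 5 of 6 libraries. In MSC-TPr 1 it had 31.9 CPM per kb, and Loxl1 was highest there with 46.5. Fbln2 followed with a mean of 95.1 CPM per kb (36.3 to 217 over the libraries) and Loxl1 with 63.6 (46.5 to 77.7). The next 3 genes were Fbn1 at 16.3, Loxl2 at 15.4 and Loxl3 at 14.9 CPM per kb, and their ranges overlapped widely, so their order is not fixed by these data. Fbln5 had 8.23 and Fbln1 0.966 CPM per kb. Lox overlapped Fbln2 and Loxl1 in its range over libraries, but within every library except MSC-TPr 1 it was above both. The order of Fbln2 and Loxl1 differed between libraries. The exon lengths come from the GENCODE annotation and count all annotated exons of a gene.

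**Figure D1:**
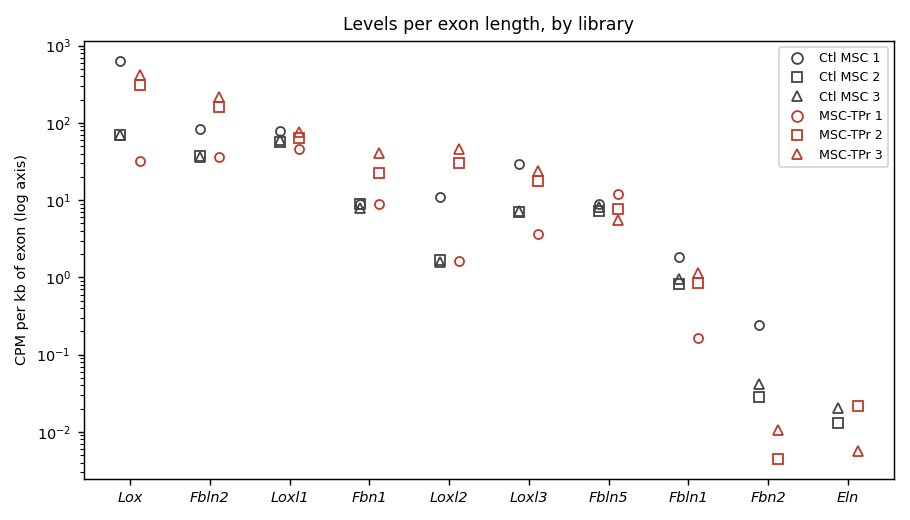
Level of each gene in CPM per kb of exon (log axis), 1 symbol per library, grey for Ctl MSC and red for MSC-TPr, with genes ordered by their mean and libraries with 0 reads not drawn. Lox tops the order with a mean of 257 CPM per kb, and Fbn2 and Eln reach at most 0.242 and 0.0219 CPM per kb in any library.

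Elastin itself was hardly detected. Eln (chromosome 5, 134702593 to 134747323), the protein that gives the fibre its elasticity, had 0, 2 and 3 reads under the Ctl MSC label against 0, 3 and 1 reads under the MSC-TPr label, at or under the floor of 3 reads in every library. No difference in Eln could be detected at this depth. Fbn2 (chromosome 18, 58008623 to 58210487), the fibrillin best known from embryonic microfibrils, had 53, 7 and 10 reads under the Ctl MSC label against 0, 1 and 3 under the MSC-TPr label. Most of its reads thus came from Ctl MSC 1, and the groups did not overlap. It was not tested by edgeR over 6 libraries because it did not pass the filter. Without that filter its log2 fold change was −4.16 (SE 1.16, edgeR adjusted p = 0.219), and DESeq2, which keeps such genes, called it lower in the libraries labelled MSC-TPr (DESeq2 adjusted p = 0.0223).

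Over all 6 libraries, 0 of the 8 genes tested were called different between the labels (edgeR's quasi-likelihood test, p adjusted by Benjamini-Hochberg below 0.05 together with a log2 fold change of 0.5 or more either way), where 0.426% of all 11974 genes tested were called. At an unadjusted p under 0.05 there was 1, Fbn1, against 15% of all genes, and DESeq2 called 1 of 10, Fbn2, against 4.07% of all genes. Over the 4 libraries numbered 2 and 3, 5 of the 8 genes were called, and in all 5 the level was higher under the MSC-TPr label: Loxl2, Lox, Fbln2, Fbn1 and Loxl3. In this comparison 40% of all genes tested were called, 20.6% being higher and 19.4% lower. DESeq2 called 5 of the 10 members over the 4 libraries, where it called 27.9% of all genes. The median log2 fold change of the 8 genes was 0.06 over 6 libraries and 1.73 over 4, beside 0.01 and 0 for all genes tested.

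**Figure D2:**
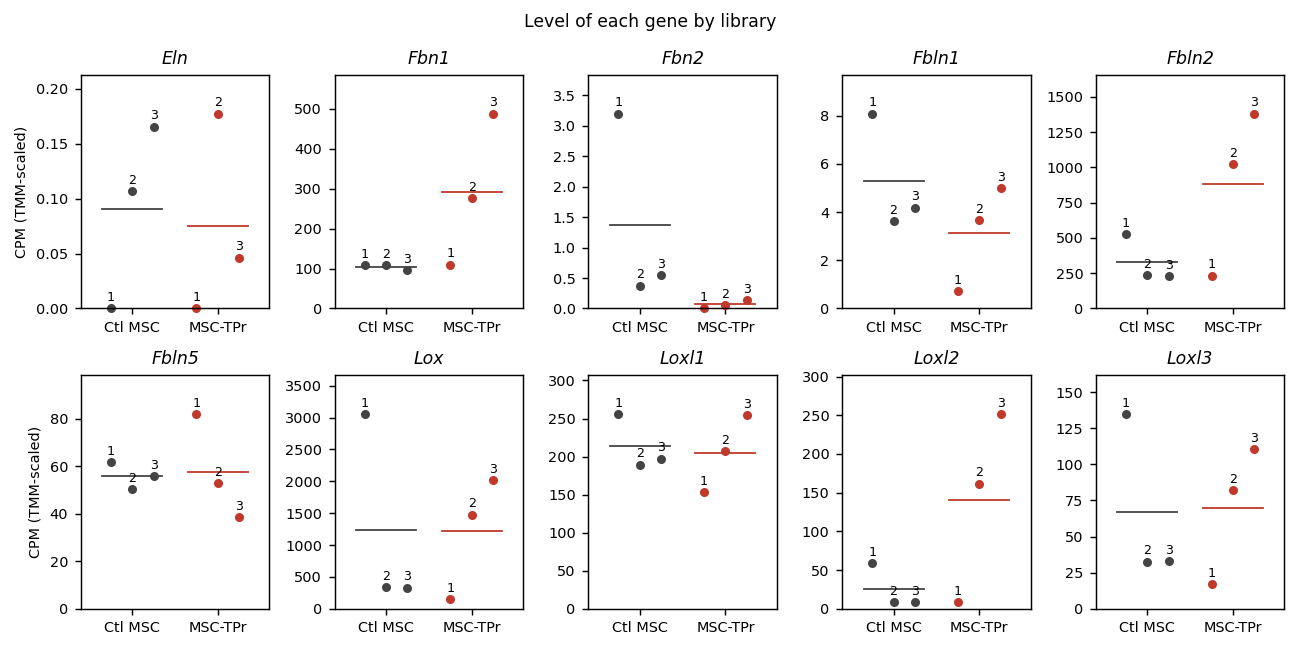
Level of each gene in CPM (linear axes from 0, each gene on its own scale), with 1 point per library, its replicate number above it and a line at the mean of the group. Lox is highest in Ctl MSC 1 (3059 CPM) and lowest in MSC-TPr 1 (153 CPM), while Fbn1 stands out in MSC-TPr 2 and 3 alone (276 and 488 CPM).

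Fbn1 (chromosome 2, 125300594 to 125507993) codes for fibrillin-1, the main building block of the microfibril, which also holds latent TGF-beta in the matrix. It had 108, 108.5 and 95.9 CPM under the Ctl MSC label against 109.8, 276 and 488 CPM under the MSC-TPr label. Only MSC-TPr 2 and 3 were high. Its groups did not overlap, as the only one of the 8 genes tested, but MSC-TPr 1 exceeded the highest Ctl MSC library by less than the spread among the Ctl MSC libraries. The share of all genes tested whose groups do not overlap was 22.6%, or 10.6% for those higher in the libraries labelled MSC-TPr. The group means were 104 ± 7.12 and 292 ± 190 CPM (SD, n = 3 each). The log2 fold change was 1.49 (SE 0.494, edgeR adjusted p = 0.246) over 6 libraries, and with the 4 alone 1.91 (SE 0.273, edgeR adjusted p = 0.0032). Unlike the enzymes Lox and Loxl3, Fbn1 was not raised in Ctl MSC 1.

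The fibulins are matrix glycoproteins, members of which bind tropoelastin and fibrillin. Fbln2 (chromosome 6, 91212455 to 91272540) was the most abundant of the 3, with 525, 236 and 231 CPM under the Ctl MSC label against 234, 1025 and 1382 CPM under the MSC-TPr label. MSC-TPr 2 and 3 were highest, Ctl MSC 1 lay between, and the other 3 libraries were close to each other. Its log2 fold change was 1.41 (SE 0.662, edgeR adjusted p = 0.379) over 6 libraries, and with the 4 alone 2.37 (SE 0.178, edgeR adjusted p = 0.000378). Fbln5 (chromosome 12, 101746565 to 101819055), a fibulin needed to assemble elastic fibres, had 61.8, 50.5 and 55.7 CPM under the Ctl MSC label against 82.1, 52.8 and 38.5 CPM under the MSC-TPr label. The groups overlapped, and MSC-TPr 1 was the highest library. Its log2 fold change was 0.05 (SE 0.285, edgeR adjusted p = 0.957) over 6 libraries, and with the 4 alone −0.22 (SE 0.174, edgeR adjusted p = 0.342). Fbln1 (chromosome 15, 85205949 to 85286535), a fibulin of basement membranes and elastic fibres, was low, at 8.10, 3.63 and 4.19 CPM under the Ctl MSC label against 0.720, 3.67 and 5.01 CPM under the MSC-TPr label. Its extremes were the libraries numbered 1. The log2 fold change was −0.75 (SE 0.682, edgeR adjusted p = 0.654) over 6 libraries, and with the 4 alone 0.16 (SE 0.240, edgeR adjusted p = 0.608).

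Lox, the founding enzyme of the family, varied most by library in absolute level. It had 3059, 334 and 331 CPM under the Ctl MSC label against 153, 1476 and 2015 CPM under the MSC-TPr label. Ctl MSC 1 was thus 20.1-fold above MSC-TPr 1, opposite to the order of the libraries numbered 2 and 3. The means of the 2 labels were 1241 ± 1574 and 1215 ± 959 CPM (SD, n = 3 each), and the log2 fold change over 6 libraries was −0.03 (SE 1.15, edgeR adjusted p = 0.993). Over the 4 libraries it was 2.40 (SE 0.184, edgeR adjusted p = 0.000408). Loxl3 (chromosome 6, 83034173 to 83052562), a family member with scavenger receptor domains, had the same 3 highest libraries and the same lowest one, with 135, 32.7 and 33.2 CPM under the Ctl MSC label against 17.1, 82.3 and 111 CPM under the MSC-TPr label. It gave 0.07 (SE 0.806, edgeR adjusted p = 0.979) over 6 libraries, and with the 4 alone 1.55 (SE 0.168, edgeR adjusted p = 0.00126).

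Loxl2 (chromosome 14, 69609068 to 69695834), which also carries scavenger receptor domains and cross-links basement membrane collagen IV, had the largest fold change of the set over the 4 libraries. It had 58.7, 8.97 and 8.55 CPM under the Ctl MSC label against 8.75, 162 and 252 CPM under the MSC-TPr label. MSC-TPr 2 and 3 lay above Ctl MSC 1, which lay above the other 3 libraries. The log2 fold change was 2.47 (SE 1.26, edgeR adjusted p = 0.413) over 6 libraries, and with the 4 alone 4.56 (SE 0.254, edgeR adjusted p = 0.000149). Loxl1 (chromosome 9, 58287738 to 58313186), the family member most tied to elastic fibre upkeep in adult tissue, was the steadiest of the 8 genes tested, with a highest library 1.67-fold above the lowest. It had 256, 189 and 197 CPM under the Ctl MSC label against 153, 208 and 255 CPM under the MSC-TPr label. Its log2 fold change was −0.06 (SE 0.232, edgeR adjusted p = 0.922) over 6 libraries, and with the 4 alone 0.26 (SE 0.139, edgeR adjusted p = 0.170).

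The order of the libraries was shared by several of these genes. For Fbln2, Lox, Loxl1, Loxl2 and Loxl3, that is 5 of the 8 genes tested, Ctl MSC 1 and MSC-TPr 2 and 3 were the 3 highest libraries, and they were the 3 lowest for none. Among all genes tested, 23% had these as the 3 highest libraries and 21.7% as the 3 lowest. The same libraries had the high levels of cell division genes given above, whose sum spanned 241 to 2300 CPM under the Ctl MSC label and 250 to 2250 CPM under the MSC-TPr label, with all 20 of the list tested and none at 0. Lox and Loxl3 were highest in Ctl MSC 1, Fbln2 and Loxl2 in MSC-TPr 3, and Loxl1 was nearly equal in these 2 libraries. The part of cell division in these levels is approached only through the covariate that follows.

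When the mean log2 CPM of the cell division list entered the fit as a covariate, 3 of the 8 genes were called, where 12.1% of all genes were called, and all 3 were lower under the MSC-TPr label. The log2 fold change under this model was −0.95 for Lox (SE 0.169, edgeR adjusted p = 0.0131), −0.69 for Loxl3 (SE 0.172, edgeR adjusted p = 0.0378) and −1.45 for Fbln1 (SE 0.366, edgeR adjusted p = 0.0397). For Lox and Loxl3 this direction was opposite to the one over the 4 libraries. Fbn1, Loxl2 and Fbln2 kept a positive sign, at 0.97, 1.03 and 0.61, without passing the threshold (edgeR adjusted p from 0.139 to 0.184). The covariate was computed from the same libraries, and its use leaves few degrees of freedom. It was 6.43 to 6.55 in Ctl MSC 1 and MSC-TPr 2 and 3. In MSC-TPr 1 and Ctl MSC 2 and 3 it was 3.19 to 3.24. At each of these levels, 1 label is thus held by a single library, the one numbered 1. The label effect under this model, calls included, therefore rests on Ctl MSC 1 and MSC-TPr 1, each without a replicate at its level.

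**Figure D3:**
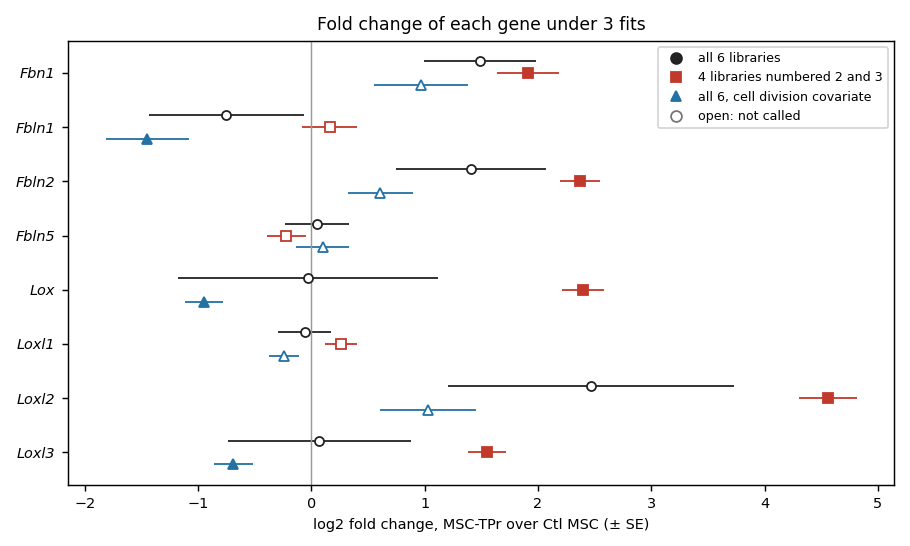
Log2 fold change of MSC-TPr over Ctl MSC with its SE for the 8 genes tested, over all 6 libraries (circles), over the 4 libraries numbered 2 and 3 (squares) and over all 6 with the cell division covariate (triangles), filled where the gene was called. Lox lies at −0.03, 2.40 and −0.95 in the 3 fits, and Loxl2 stays above 0 in each.

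Libraries numbered 1 were also set against each other, as single libraries without a replicate check. MSC-TPr 1 had lower levels than Ctl MSC 1 for Lox (log2 ratio −4.33), Fbln1 (−3.49), Loxl3 (−2.98), Loxl2 (−2.75), Fbln2 (−1.17) and Loxl1 (−0.74). It had a nearly equal level of Fbn1 (0.02) and a higher one of Fbln5 (0.41). Of the 5 genes called higher over the libraries numbered 2 and 3, 4 thus had the opposite order in this pair. Cell division genes and the first principal component had the opposite order in this pair as well. The share among all genes called higher was not computed, so the count is not read as particular to the set.

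Contractile genes, which mark smooth muscle and myofibroblasts as other makers of elastic fibres, moved with part of the set. The summed level of Acta2, Tagln, Cnn1, Myh11, Myl9 and Actg2 was 858, 638 and 695 CPM under the Ctl MSC label against 200, 1570 and 1600 CPM under the MSC-TPr label, with 5 of the 6 genes tested and Myh11, the defining smooth muscle myosin, at 0 to 5 reads. Macrophage markers summed to between 11.2 and 17.6 CPM in every library, but single markers moved apart: Cd68 was at 1.63, 9.67 and 7.39 CPM under the Ctl MSC label against 14.2, 1.66 and 0.789 CPM under the MSC-TPr label, and Cd14 at 11.7, 3.37 and 3.53 CPM against 3.27, 13.2 and 11.0 CPM. Csf1r was at or below 0.835 CPM in all 6 libraries. Over the 4 libraries Cd68 was called lower (log2 fold change −2.83) and Cd14 (1.81) and Csf1r (3.74) higher, and none of the 3 was called over 6. These 3 are named after their values were seen. Summed levels of endothelial markers lay between 0.785 and 3.32 CPM. Markers of osteoblasts summed to 40 to 45.2 CPM in Ctl MSC and 45.6 to 70.9 CPM in MSC-TPr, and those of adipocytes to 79.7 to 205 CPM and 24.4 to 88.5 CPM. Most of the osteoblast sum was Runx2 (39.5 to 58.8 CPM), while Sp7, Bglap and Ibsp had at most 4 reads in any library. Alpl had 3.44, 0.694 and 0.496 CPM under the Ctl MSC label against 2.49, 7.10 and 12.1 CPM under the MSC-TPr label. Its log2 fold change was 2.23 over 6 libraries (edgeR adjusted p = 0.31) and 4 over the 4 libraries (edgeR adjusted p = 0.000902). With the covariate it was 1.72 (edgeR adjusted p = 0.0133). The adipocyte sum was nearly all Pparg and Fabp4, with Adipoq and Plin1 at 2 and 1 reads in total. Pparg and Fabp4 were called neither over the 6 libraries nor over the 4. With the covariate both were called lower, at −1.37 (edgeR adjusted p = 0.000713) and −1.55 (edgeR adjusted p = 0.00347). The part of these programmes in the levels of the set was not tested. In bulk RNA, fewer cells of a type and less RNA per cell cannot be told apart.

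A wider list of 22 elastic fibre genes, covering microfibril-associated proteins, latent TGF-beta binding proteins (Ltbp), processing proteases and the copper transporter that loads lysyl oxidases, was examined next. Of these, 20 were tested and 0 were called over 6 libraries, where 0.426% of all genes tested were called. At an unadjusted p under 0.05 there were 2, both lower in the libraries labelled MSC-TPr, against 15% of all genes. These were Mfap2 and Tll1, also the only ones of the list whose groups did not overlap (2 of 20, both lower, where 12.1% of all genes tested were lower without overlap). Mfap2, a microfibril-associated protein that binds fibrillin, had 20, 13 and 21 reads under the Ctl MSC label against 2, 1 and 1 reads under the MSC-TPr label. All Ctl MSC libraries were above all MSC-TPr libraries, the libraries numbered 1 included. Its log2 fold change was −3.72 (SE 0.548, edgeR adjusted p = 0.0595) over 6 libraries, −3.99 (SE 0.660, edgeR adjusted p = 0.00515) over 4 and −3.78 (SE 0.574, edgeR adjusted p = 0.0072) with the cell division covariate. DESeq2 called 2 of 21 over 6 libraries, both lower, where it called 4.07% of all genes. Tll1, a protease related to Bmp1 that can activate lysyl oxidase precursors, had 24, 47 and 52 reads under the Ctl MSC label against 2, 6 and 18 reads under the MSC-TPr label, and gave −2.35 (SE 0.670, edgeR adjusted p = 0.201) and −2.11 (SE 0.395, edgeR adjusted p = 0.00782). With the covariate Tll1 was at −2.30 (SE 0.637, edgeR adjusted p = 0.0514) and was not called. Both genes are low, so their ratios rest on few reads.

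The other genes named from this list complete the 3 with the largest fold change in each direction over 6 libraries, and none was called there. Mfap5, the partner of Mfap2 on microfibrils, had 12.2, 1.12 and 1.54 CPM under the Ctl MSC label against 0.941, 2.90 and 2.69 CPM under the MSC-TPr label, so that Ctl MSC 1 alone was high. Its log2 fold change went from −1.18 (SE 0.974, edgeR adjusted p = 0.617) over 6 libraries to 1.07 (SE 0.276, edgeR adjusted p = 0.0234) over 4, and was −1.53 (SE 0.354, edgeR adjusted p = 0.0309) with the covariate. Ltbp4, which binds latent TGF-beta and takes part in elastogenesis, gave 0.73 (SE 0.628, edgeR adjusted p = 0.636) over 6 libraries, from 5.80, 16.6 and 16.7 CPM under the Ctl MSC label against 39.0, 8.76 and 17.0 CPM under the MSC-TPr label. It gave −0.36 (SE 0.300, edgeR adjusted p = 0.362) with the 4 libraries alone, and with the covariate it was called higher, at 1.19 (SE 0.256, edgeR adjusted p = 0.0251). Adamtsl4, a microfibril protein of the lens zonule, had 25.2, 3.63 and 2.70 CPM under the Ctl MSC label against 4.98, 15.1 and 23.6 CPM under the MSC-TPr label. It gave 0.47 (SE 0.952, edgeR adjusted p = 0.855) over 6 libraries, and with the 4 alone 2.61 (SE 0.287, edgeR adjusted p = 0.00131). With the covariate Adamtsl4 was at 0.08 (SE 0.267, edgeR adjusted p = 0.871). Hmcn1, a large matrix protein of the fibulin family, stayed between 0.0604 and 1.18 CPM and gave 0.47 (SE 0.802, edgeR adjusted p = 0.828).

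Over the 4 libraries numbered 2 and 3, 10 of the 20 were called, against 40% of all genes: 7 were higher and 3 lower in the libraries labelled MSC-TPr. The genes called there are named after their values were seen. The higher ones were Efemp1 and Efemp2, which are further fibulins, Mfap5, Emilin2, Ltbp2, the procollagen C-proteinase Bmp1 and Adamtsl4, and the lower ones Mfap2, Tll1 and Thsd4. The median log2 fold change of the list was −0.09 over 6 libraries and 0.13 over 4. All 7 of the higher genes were among the 8 of the list (40% of 20) for which Ctl MSC 1 and MSC-TPr 2 and 3 were the 3 highest libraries. Part of this overlap is built in, because a call over the 4 libraries favours MSC-TPr 2 and 3 above Ctl MSC 2 and 3. The share among all genes called higher was not computed, so the overlap is not read as a trait of the list.

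**Figure D4:**
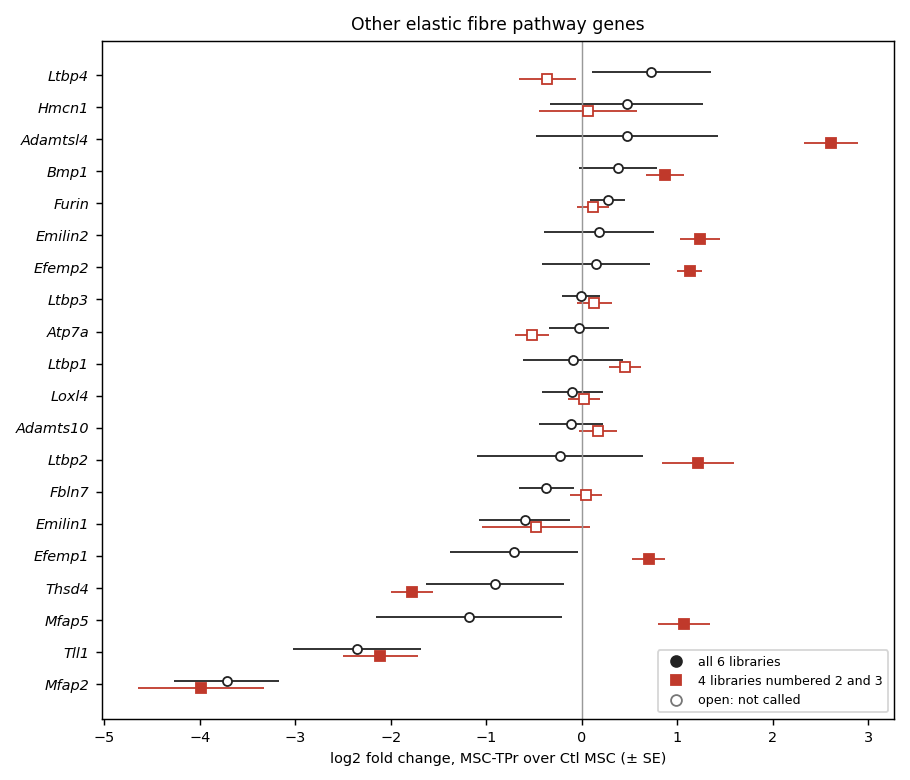
Log2 fold change of MSC-TPr over Ctl MSC with its SE for the 20 tested genes of the wider list, over all 6 libraries (circles) and the 4 numbered 2 and 3 (squares), filled where called. Mfap2 and Tll1 stay below −2 in both fits, while Mfap5 and Efemp1 lie on opposite sides of 0.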

How the data were processed

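Reads were aligned by the authors to mm10, and the deposited table holds raw counts per gene symbol from Htseq-count. The submitters' processing notes name CASAVA 1.8.2, Trimmomatic 0.35 and TopHat2 2.1.0. The annotation and strand setting of the counting are not given in the sources used here. Reads on no gene, or on several, were left out, and 79.23% to 86.23% of the listed reads remained. Gene positions and exon lengths came from GENCODE M21 (mm10).

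The counts went into edgeR 4.0.16 (R 4.3.3) with TMM scaling, filterByExpr, and the quasi-likelihood test with the group as the only term, adjusted by Benjamini-Hochberg over all genes tested. The SE is the size of the log2 fold change divided by the square root of F. DESeq2 1.42.0 was the second tool. Both were also run on simulated counts, drawn with the same spread setting for every gene and no cell division differences between libraries. That run does not measure how the fits behave on these data. Library groups and numbers came from the sample labels. The members and gene lists were chosen with earlier results of these data known. Genes named are the 10 members, the transduced genes, those of the wider list called or without overlap over 6 libraries, the 3 with the largest fold change in each direction, and the 3 genes most like Lox. Other genes named, such as those of the wider list called over the 4 libraries alone, were chosen after their values were seen. The 3 genes most like Eln were planned as well, but Eln did not pass the filter.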

Additional observations from a re-analysis of the deposited data

How the results depend on the processing

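The number of genes called over the whole table depended on the libraries and the model: it was 51 over all 6 libraries, 4854 over the 4 numbered 2 and 3, 1449 with the cell division covariate, 683 with DESeq2, 31 with at least 10 counts in every library and 0 with the replicate number as a block (776 at an unadjusted p under 0.05), and ranged from 0 to 108 with each library left out in turn. For the 10 members the count was 0 over 6 libraries, 5 over the 4 libraries, 1 with DESeq2 and 3 with the covariate, and 0 in the other 10 alternatives, which include the replicate block and each library left out (0 to 0). For the wider list it was 0 over 6 libraries, 10 over the 4 libraries, 2 with DESeq2, 3 with the covariate and 0 to 0 with each library left out. Of the 8 members tested, those without overlap numbered 1 over 6 libraries, also with RLE factors or plain library totals, and 6 over the 4 libraries, where 77.5% of all genes tested did not overlap (alternatives chosen after seeing the data). Fbn2, not tested, did not overlap over 6 libraries either. The sign was reversed over the 4 libraries for Fbln1 (0.16), Fbln5 (−0.22), Lox (2.40) and Loxl1 (0.26), with the block for Fbln5 (−0.02) and Lox (0.88), and with the covariate for Loxl3 (−0.69). With each library left out in turn, the log2 fold change ranged from −0.29 to 0.27 for Fbln5, from −0.60 to 1.87 for Lox, from −0.24 to 0.11 for Loxl1 and from −0.42 to 1.09 for Loxl3, all with changes of sign, and from 0.90 to 1.88 for Fbn1, −1.26 to −0.28 for Fbln1, 0.94 to 1.92 for Fbln2 and 1.76 to 4.01 for Loxl2, without one. Leaving out Ctl MSC 1 moved Lox most, to 1.87 (edgeR adjusted p = 0.29). The labels give the libraries shared numbers. Residuals of libraries with equal numbers, taken from the mean of each label, correlated at −0.765, −0.594 and −0.604 across genes. Residuals from a mean of 3 are not independent, and the libraries numbered 1 differ in cell division genes. These values therefore cannot show whether the numbers pair the libraries. Among the members and the named genes of the wider list, depth limits Eln, Fbn2, Mfap2 and Hmcn1. Each had under 100 reads in all 6 libraries together. Causes of these changes were not tested.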

Other observations

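The genes whose pattern was most like that of Lox, by Pearson's r of log2 CPM over the 6 libraries among the 11974 genes tested, were Gm2115 (r = 0.9983), the fatty acid-binding protein gene Fabp5 (r = 0.9979) and Timeless, a gene of replication fork stability (r = 0.9978). Libraries 1, 2 and 3 gave 43.0, 12.2 and 12.1 CPM of Timeless under the Ctl MSC label against 7.42, 30.9 and 32.2 CPM under the MSC-TPr label. For Fabp5 the levels were 100, 29.0 and 29.7 CPM against 18.6, 74.9 and 86.5 CPM. For Gm2115 they were 39.3, 3.20 and 2.92 CPM against 1.33, 16.5 and 20.0 CPM. The 6 libraries fall into separate clusters and share the depth of each library across genes, so these values describe the likeness and carry no p.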
